A study of Caenorhabditis elegans with 12 samples.

Results

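The embryos described here were sampled in the middle of an induced myogenic program, 4 h after a heat pulse that switched on the muscle transcription factor HLH-1 in *C. elegans*. The 3 arrays of that time point were compared with the 3 arrays of embryos taken at 0 h, before any heat pulse. These are 6 of the 12 arrays of the time course, and the members are every probe set of the array that is not a control. The arrays at 2 h and 6 h are used to place the changes in time.

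All samples came from 1 strain, KM267, which carries *hlh-1* under heat shock control, and the 0 h samples carry the same transgene. Each sample was a pool of about 80 embryos of the earliest cleavage stages. The 4 h embryos were kept for 60 min, received a pulse of 30 min at 34 °C and were then held at room temperature for 4 h, whereas no incubation is recorded for the 0 h embryos. Each time point had 3 independent samples, named by the letters A, B and C. RNA was amplified by 20 cycles of PCR before it was labeled, and it came from whole embryos, so that fewer cells of a type and less RNA per cell cannot be told apart. No pulsed embryos without the transgene were analysed here. The effect of HLH-1, the effect of the pulse and embryonic age therefore cannot be told apart in any difference between 4 h and 0 h.

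HLH-1 is the nematode member of the MyoD family, basic helix-loop-helix factors that bind E-box elements and start muscle transcription. In *C. elegans* body wall muscle it acts with UNC-120, a relative of serum response factor, and with HND-1, a HAND factor. The sarcomeres of this muscle hold myosin thick filaments, anchored at M-lines, and actin thin filaments, anchored at dense bodies, and both anchors attach to the basement membrane through integrin. Calcium released from internal stores acts on troponin to start contraction, and acetylcholine receptors at the neuromuscular junction bring the signal in.

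Values are MAS5 signals, brightness on a linear scale with every array scaled to the same trimmed mean, and a signal is compared only with that of the same probe set in other arrays. The array held 22548 probe sets beside its controls, and limma was run on 18264 of them, namely those whose signal exceeded 69.7, the reference level, on 3 or more of the 12 arrays. A probe set was called higher or lower when it changed by 1.7-fold or more with an adjusted p below 0.05. Replicate arrays correlated at *r* = 0.835 to 0.884 over probe sets, as a description. Where any array of the dimmer group did not exceed the reference level, the fold is a lower bound and is marked "at least". Folds and bounds are ratios of geometric means, that is, they come from means of log2 signals, and in a bound each such array of the dimmer group counts as 69.7. Errors beside log2 differences are standard errors from limma with n = 3 arrays in each group, and p is adjusted over all tested probe sets. The 0 h sample A held more signal than the other 0 h samples for *pat-10*, *cpn-3* and *mlc-2*, and these 3 genes are given with and without it.

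By 4 h, 3122 probe sets were higher than at 0 h and 2181 were lower, which is 17.1% and 11.9% of those tested. Read at 1 probe set for each of 14051 genes, 2396 genes were higher and 1747 were lower, or 17.1% and 12.4%, and these shares are the background for every list below. The median over all genes tested was a log2 difference of 0.15. Among the higher probe sets, 1903 were above the reference level in every array of both groups, with a median of 2.81-fold, and 168 of them changed at least 10-fold. Among the lower probe sets the same held for 1255, with a median of 3.42-fold and 198 at 10-fold or more. Only 995 genes were higher and 1075 lower at 4 h than at 2 h, or 7.08% and 7.65%. From 4 h on, 1108 genes were higher and 1217 lower at 6 h, or 7.89% and 8.66%. The split of the 6 h step depended on scaling, with 1412 probe sets higher and 1532 lower as deposited, but 1023 higher and 2294 lower with all arrays scaled to 1 median.

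The factors that run the muscle program had diverged by 4 h. *unc-120* was the most changed of those that rose, and its signal was 13520.5, 10521 and 11333 in the 4 h arrays, against 138, 161 and 188 in the 0 h arrays. Every 4 h array stood far above every 0 h array, with a log2 difference of 6.19 ± 0.20 or 72.8-fold (adjusted p = 3.3e-15). At 2 h it read only 839.9, 725 and 948, and at 6 h it read 13646, 11629 and 15460.5, with a log2 difference against 4 h of 0.20 ± 0.20 that did not pass the test (adjusted p = 0.58).

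*hlh-1* itself, the induced gene, had already passed its highest level. It read 1552, 1179 and 1342 at 4 h, against 199, 348 and 196 at 0 h, a rise of 5.66-fold with no overlap between groups (log2 difference 2.50 ± 0.28, adjusted p = 3.3e-07). The 2 h arrays were higher still, at 3684, 4023 and 2802, so that 4 h was 2.57-fold lower than 2 h (adjusted p = 0.0014). Message from the transgene and from the endogenous gene was not told apart.

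*hnd-1*, which acts early in the muscle lineage, went the other way. It read 722, 743 and 454 at 4 h and 11936, 19918 and 17719 at 0 h, which is 25.9-fold lower (log2 difference -4.69 ± 0.57, adjusted p = 8e-05). *pal-1*, the caudal homolog that acts upstream of *hlh-1* in the muscle-forming C and D lineages, was lower too, by at least 4.80-fold, with every 4 h array below the reference level (adjusted p = 0.0091). Its other probe sets had log2 differences of -1.48 and -1.07 and did not pass the test.

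**Figure D1:**
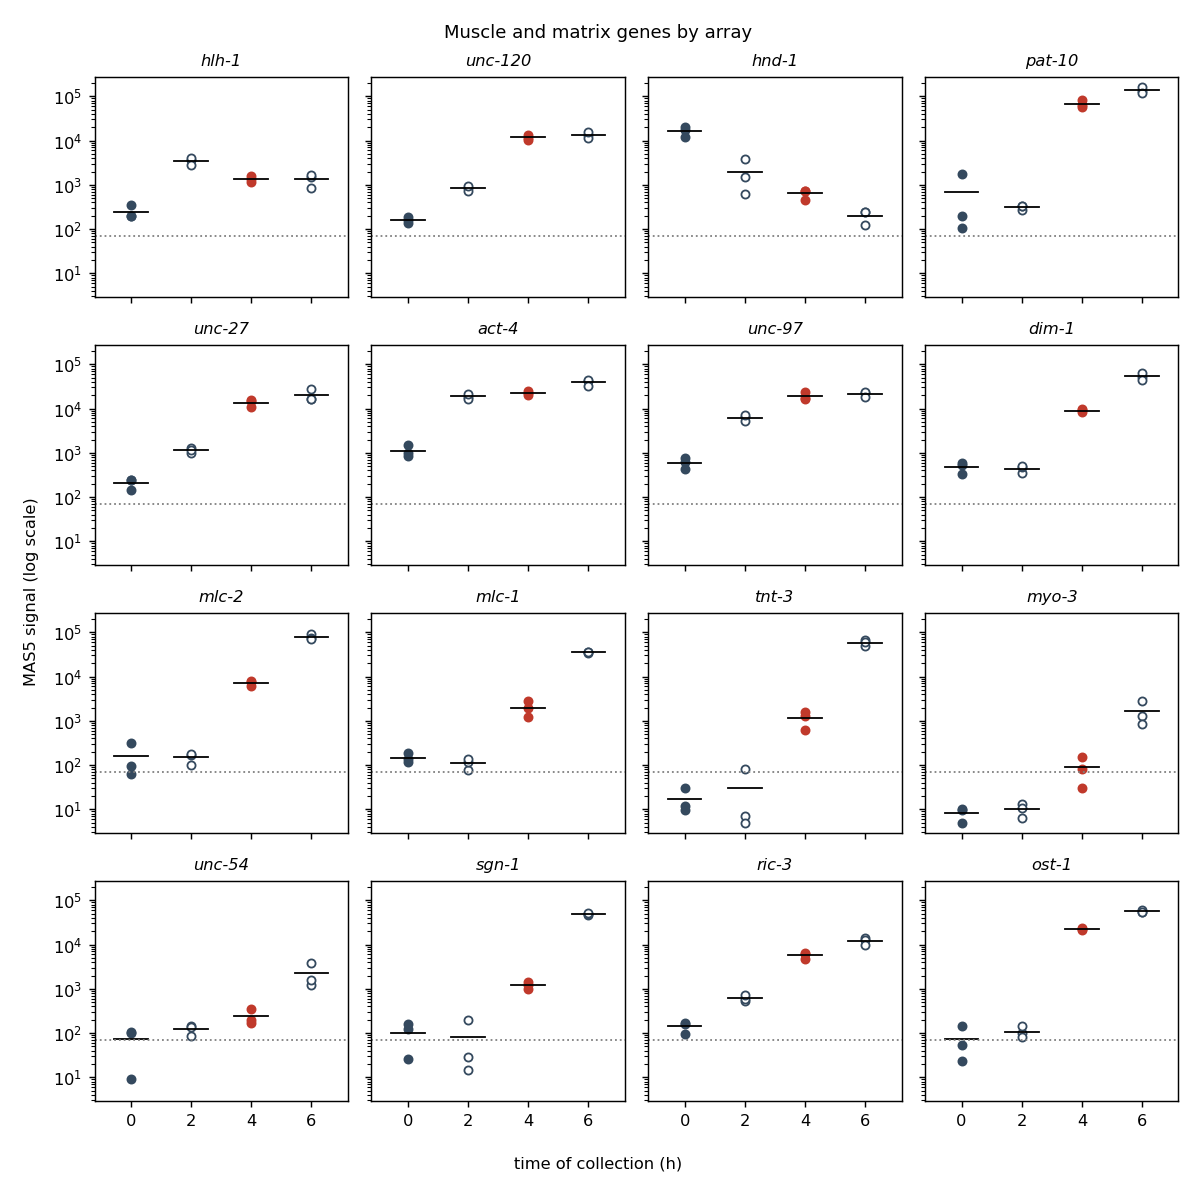
MAS5 signal on a log axis of 16 myogenic and muscle genes against the time of collection in hours. The 0 h embryos had no heat pulse. Each point is 1 array, with bars for the mean and a dotted line at the reference level of 69.7. *unc-120*, *unc-27* and *unc-97* did not pass the test between 6 h and 4 h, whereas *mlc-1*, *tnt-3* and *sgn-1* were a further 18.9-fold, 53.5-fold and 40.8-fold higher at 6 h.

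Of 100 genes listed for muscle structure and function, 93 had a probe set of their own and 90 were tested. At 4 h, 50 of the 90 (55.6%) were higher than at 0 h and 3 were lower, beside 17.1% and 12.4% of all genes tested. The list median was a log2 difference of 1.90, beside 0.15 for all genes, and it was 0.96 once low signals had been set to the reference level. In 49 of the 50 genes the 4 h arrays did not overlap the 0 h arrays, beside 3038 of all 3122 probe sets called higher. Without any 1 of the 6 arrays the count of higher genes was 43 to 51, and 41 of the 50 kept their call whichever array was left out. The summed signal of the list was 54105 to 62175 at 0 h, 96873 to 117506 at 2 h, 339755 to 388686 at 4 h and 966856 to 1168924 at 6 h. Bright probe sets weigh most in such a sum, and at 4 h *pat-10* alone read 83586, 63360.1 and 57122. The groups of genes behind this sum were far from equally advanced, and each is set beside its own step from 4 h to 6 h, which shares the 4 h arrays. Over the whole list, 54 genes were higher and 1 lower at 6 h than at 4 h, and the median of that step was 2.28.

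**Figure D2:**
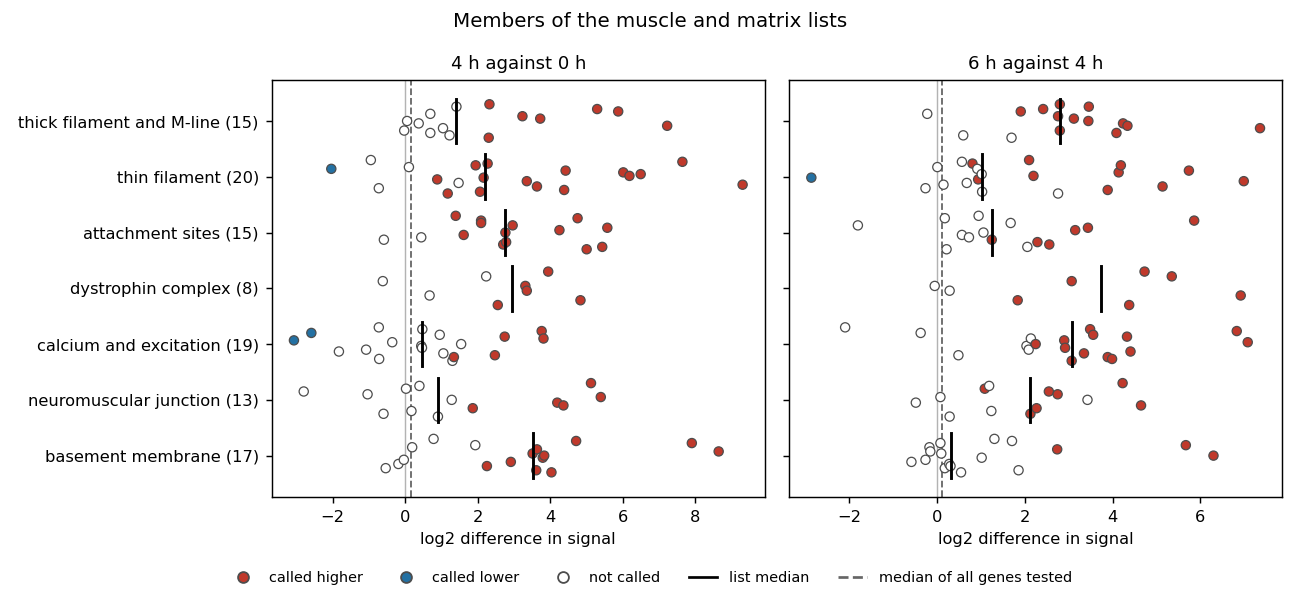
Log2 difference of each tested member of the muscle lists and of the basement membrane list, at 4 h against 0 h (left) and at 6 h against 4 h (right), with red for called higher, blue for called lower and open for not called. Black bars are list medians and the dashed line is the median of all genes tested. The medians for attachment sites and basement membrane were larger in the step to 4 h, at 2.76 and 3.51. With low signals set to the reference level they were 1.61 and 1.82, beside 1.25 and 0.28 in the step to 6 h. The medians for the thick filament and for calcium and excitation were larger in the step to 6 h, at 2.80 and 3.07. With low signals set to the reference level they were 2.80 and 2.25, beside 0.49 and 0.08 in the step to 4 h.

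The thin filament was well under way at 4 h. Of 20 genes tested, 15 were higher than at 0 h and 1 was lower, with a median of 2.21. At 6 h, 10 were higher and 1 lower than at 4 h, with a median of 1.03. With low signals set to the reference level these medians were 1.97 and 1.03. *unc-27*, a troponin I, read 15309.7, 14506 and 10590.4 at 4 h, against 147, 244 and 247 at 0 h, or 64.3-fold higher (log2 difference 6.01 ± 0.24, adjusted p = 9.3e-14). The groups were far apart, and the 6 h signals of 27442, 16667 and 16712 did not pass the test against 4 h (adjusted p = 0.13). *pat-10*, the troponin C of body wall muscle, which binds calcium on the thin filament, read 83586, 63360.1 and 57122 at 4 h, against 1754, 108 and 199 at 0 h. This was 200-fold (log2 difference 7.64 ± 0.86, adjusted p = 0.00013), and it was 458-fold without the 0 h sample A and 114-fold without the 0 h sample B. *cpn-3*, a calponin-like gene, had the same high 0 h sample, with 86741, 70752 and 54097 at 4 h and 2509, 15.7 and 33.8 at 0 h. Its rise was at least 301-fold (adjusted p = 0.0022), at least 993-fold without the 0 h sample A and at least 166-fold without the 0 h sample B or C.

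Actin genes differed among themselves. *act-4*, one of the muscle actins, read 22395, 20481 and 24496 at 4 h and 1542, 832 and 976 at 0 h, 20.8-fold higher (log2 difference 4.38 ± 0.21, adjusted p = 9.8e-13). Most of this was in place at 2 h, when it read 18644, 16453 and 21241, and 4 h did not pass the test against 2 h (adjusted p = 0.5). *act-3* was 1.65-fold lower at 4 h than at 0 h, which is under the 1.7-fold needed for a call (adjusted p = 0.027). *act-5*, which is on the intestine list, did not pass the test (adjusted p = 0.53). *act-1* and *act-2* have only probe sets shared with other actin genes. Of those shared by *act-1*, *act-2* and *act-3*, 1 was 1.72-fold lower at 4 h than at 0 h (adjusted p = 0.013). That call was lost without the 4 h sample A or B or the 0 h sample A or C. Another was 1.58-fold lower, which is under 1.7-fold (adjusted p = 0.024). The probe set that also reads *act-4* did not pass the test (adjusted p = 0.076).

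Other troponin genes and tropomyosin were also higher at 4 h than at 0 h. *tnt-3*, a troponin T, read 1572, 636 and 1296 at 4 h and 29.7, 11.6 and 9.8 at 0 h, a rise of at least 15.6-fold (adjusted p = 0.00054) from signals that all lay below the reference level. It was 53.5-fold higher again at 6 h than at 4 h (adjusted p = 0.0018). *tni-1*, another troponin I, and *mup-2*, another troponin T, were higher by at least 20.2-fold and at least 7.95-fold (adjusted p = 6.9e-07 and 0.00013). In the step to 6 h *mup-2* was a further 17.6-fold higher. *lev-11*, the tropomyosin gene, was 4.81-fold higher at its brightest probe set (adjusted p = 0.0034) and 18.2-fold higher again in the step to 6 h. Of the genes for filament dynamics, *cap-1* and *cap-2*, the subunits of actin capping protein, were higher by 3.85-fold and 2.26-fold (adjusted p = 2.4e-07 and 7.3e-06) and did not pass the test between 4 h and 6 h.

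*unc-60*, which encodes both a general and a muscle form of cofilin, gave different values at its probe sets. The brightest was 4.18-fold higher at 4 h than at 0 h (adjusted p = 5.8e-08) and 7.28-fold lower at 6 h than at 4 h. Another read 2998, 2575 and 2893 at 4 h and 30.7, 63.9 and 34.1 at 0 h, at least 40.4-fold higher (adjusted p = 4.7e-13), and went on to be 4.09-fold higher at 6 h than at 4 h. A further one was 1.77-fold lower at 4 h than at 0 h, a call that was lost without the 4 h sample B or the 0 h sample A or C (adjusted p = 0.052, 0.075 and 0.098). The message form that each probe set reads was not determined. *ketn-1*, which encodes the thin filament protein kettin, was the lower member of the group, with 417, 178 and 163 at 4 h and 772, 1276 and 865 at 0 h, 4.12-fold lower (adjusted p = 0.00093). Its other probe set had a log2 difference of -0.01, and the first was 14.8-fold higher at 6 h than at 4 h.

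Genes of the attachment sites, where filaments meet the membrane, showed the highest share of calls among the muscle lists at 4 h, with 13 of 15 higher (86.7%) and 0 lower. Their median was 2.76 at 4 h against 0 h, or 1.61 once low signals had been set to the reference level. It was 1.25 at 6 h against 4 h, when 6 were higher. *unc-97*, a LIM domain protein of dense bodies and M-lines related to PINCH, read 16974, 23187 and 16658 at 4 h, against 749.6, 421 and 636 at 0 h. All 4 h arrays were above all 0 h arrays, with a fold of 32.0 and an adjusted p of 2.8e-13, and its 6 h signals did not pass the test against 4 h (adjusted p = 0.66). *dim-1*, an immunoglobulin-repeat protein that stabilizes the attachments, read 9568, 8299.9 and 9135 at 4 h and 531, 339.5 and 581 at 0 h, 19.1-fold higher (adjusted p = 3.6e-12) and 5.91-fold higher again at 6 h.

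The integrin and its partners moved in the same direction. *pat-3*, the beta integrin, was 2.63-fold higher (adjusted p = 1.9e-05), and *unc-112*, the kindlin that activates it, was 4.25-fold higher (adjusted p = 6.8e-06). *pat-6*, the actopaxin (parvin) partner of PAT-4, read 3436, 3004 and 3631 at 4 h and 408, 625 and 539 at 0 h, or 6.48-fold higher (adjusted p = 9e-09). *pat-4*, the integrin-linked kinase, had a log2 difference of 5.43 ± 0.79 (adjusted p = 0.00035). Its 0 h signals did not all exceed the reference level, so the size of that difference is uncertain and no fold is given. *unc-95*, a LIM protein of the same sites, was at least 19.5-fold higher (adjusted p = 3e-06). The alpha integrin gene *pat-2* was higher by at least 2.2-fold (adjusted p = 0.018), a call that was lost without the 4 h sample B or C or the 0 h sample A, where adjusted p was 0.051, 0.08 and 0.091. *deb-1*, the vinculin of dense bodies, was not among the called genes, with a log2 difference of -0.59 (adjusted p = 0.81), and it was at least 24.8-fold higher at 6 h than at 4 h (adjusted p = 0.011, but 0.058 in a fit of these 2 time points alone).

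The thick filament lagged. Of 15 genes for the thick filament and M-line, 7 were higher at 4 h than at 0 h and 0 lower, with a median of 1.41, and 12 were higher and 0 lower at 6 h than at 4 h, with a median of 2.80. With low signals set to the reference level these medians were 0.49 and 2.80. The myosin light chains led. *mlc-1* read 1911, 1236 and 2842 at 4 h, against 115, 136 and 188 at 0 h, without overlap, or 13.2-fold higher (log2 difference 3.72 ± 0.29, adjusted p = 1.9e-09), and *mlc-1* was 18.9-fold higher again at 6 h. *mlc-2*, the near-identical regulatory light chain, read 8003, 6136 and 7726 at 4 h and 317, 94.6 and 62.7 at 0 h, at least 56.6-fold higher (adjusted p = 2.4e-06), and at least 89.1-fold without the 0 h sample A. Probes for this pair may share message. *mlc-3*, the essential light chain, read 6891, 3535 and 5773 at 4 h and 78.0, 53.0 and 10.3 at 0 h, which is at least 71.9-fold higher (adjusted p = 6.5e-06).

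The myosin heavy chains, the main mass of the filament, had barely left the reference level. *myo-3*, the minor heavy chain that starts filament assembly, read 81.3, 156 and 30.6 at 4 h and 10.2, 9.6 and 4.8 at 0 h (log2 difference 3.23 ± 0.88, adjusted p = 0.0072). The 4 h arrays did not overlap the 0 h arrays, but the bound was only 1.05-fold, the call was lost without the 4 h sample B (adjusted p = 0.051) and the bound was 1.61-fold without the 4 h sample C. Once low signals had been set to the reference level its log2 difference was 0.46 (adjusted p = 0.48). At 6 h *myo-3* read 1310.5, 2823 and 866, or at least 15.4-fold above 4 h (adjusted p = 0.0011).

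*unc-54*, the major heavy chain, read 346, 169 and 199.6 at 4 h and 102, 105 and 9.2 at 0 h, a bound of at least 2.51-fold (adjusted p = 0.037). Adjusted p was 0.12, 0.062 and 0.077 without the 4 h sample A, B or C and 0.08 without the 0 h sample C, so that the call was lost without any of these 4 arrays. *unc-54* was 8.72-fold higher at 6 h than at 4 h (adjusted p = 0.012), or 7.53-fold without the 4 h sample B, where the call was lost (adjusted p = 0.053). *unc-15*, the paramyosin of the filament core, read 162, 5.6 and 13.6 at 4 h and 8.6, 6.2 and 26.8 at 0 h and did not pass the test (adjusted p = 0.59). Another of its probe sets was called, with a log2 difference of 1.96 that lost its call without the 4 h sample C or the 0 h sample A (adjusted p = 0.062 and 0.094). In the step to 6 h the first was at least 41.2-fold higher (adjusted p = 0.00019), and at least 25.8-fold without the 6 h sample B.

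At the M-line, *unc-98*, a zinc finger protein that binds paramyosin, read 2016, 1242 and 2179.6 at 4 h and 371, 462 and 255 at 0 h, a log2 difference of 2.32 (adjusted p = 9.5e-07). *unc-82*, a kinase needed to organize thick filaments, was at least 9.73-fold higher (adjusted p = 6.9e-05). *unc-89*, the obscurin of the M-line, and *unc-22*, the twitchin of the thick filament, had log2 differences of 1.41 and 0.69 and did not pass the test (adjusted p = 0.17 and 0.63). The markers listed for body wall muscle were thus split at 4 h, with *pat-10*, *tnt-3*, *mlc-2* and *unc-54* above the reference level in 3 of 3 arrays, *myo-3* in 2 and *unc-15* in 1.

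Genes of the dystrophin complex, which links the membrane to the cytoskeleton, were higher in 5 of 8 cases at 4 h, with a median of 2.93. In the step to 6 h, 6 of 8 were higher, with a median of 3.73. With low signals set to the reference level these medians were 1.82 and 3.57. *dys-1*, the dystrophin gene, was not among the 8, because the annotation of its probe set repeats its name. It read 212.3, 64.5 and 200.6 at 4 h and 97.8, 166.4 and 103.3 at 0 h, which overlap (adjusted p = 0.85). At 6 h *dys-1* was at least 7.57-fold higher than at 4 h (adjusted p = 0.0051). The sarcoglycan gene *sgcb-1* read 2667, 2185 and 2028 at 4 h and 249, 214 and 226 at 0 h, 9.94-fold higher (log2 difference 3.31 ± 0.40, adjusted p = 7.9e-06). *sgn-1*, another sarcoglycan gene, read 1436, 1006 and 1246 at 4 h and 121, 26.1 and 157 at 0 h, at least 11.1-fold higher (adjusted p = 0.012), and 40.8-fold higher again at 6 h. The groups did not overlap for either gene. The syntrophins *stn-1* and *stn-2* were higher by 10.2-fold and at least 6.71-fold (adjusted p = 6.9e-07 and 1.1e-05).

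Calcium handling and excitation were the least advanced of the muscle lists by share called. Of 19 genes, 5 were higher and 2 lower at 4 h than at 0 h, with a median of 0.47. At 6 h, 13 were higher and 0 lower than at 4 h, with a median of 3.07. With low signals set to the reference level these medians were 0.08 and 2.25. *unc-68*, the ryanodine receptor that releases calcium, read 241, 277 and 328 at 4 h and 15.4, 49.1 and 96.0 at 0 h, at least 3.61-fold higher (adjusted p = 0.00016). *jph-1*, the junctophilin that ties stores to the surface membrane, and *twk-18*, a potassium channel of body wall muscle, were higher by at least 4.69-fold and at least 3.23-fold (adjusted p = 2.9e-05 and 0.00015). *unc-68* and *twk-18* were a further 11.8-fold and 21.3-fold higher at 6 h than at 4 h. *csq-1*, the calsequestrin that buffers stored calcium, read 139, 38.3 and 102 at 4 h and 104, 119.5 and 198 at 0 h, which overlap (adjusted p = 0.31), and 12042, 9930.3 and 11391 at 6 h, at least 111-fold above 4 h (adjusted p = 1.8e-09). The lower genes were *unc-93*, which regulates a potassium channel, and *ncs-3*, a neuronal calcium sensor, by at least 3.16-fold and at least 1.93-fold. Both calls were lost without the 4 h sample C or the 0 h sample B, and that of *unc-93* also without the 4 h sample A or the 0 h sample C, with adjusted p of 0.057 to 0.062 for *unc-93* and of 0.066 and 0.072 for *ncs-3*.

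At the neuromuscular junction, 5 of 13 genes were higher and 0 lower at 4 h than at 0 h, with a median of 0.90. That median was 0.26 once low signals had been set to the reference level. In the step to 6 h, 7 were higher and 0 lower. *ric-3*, a chaperone that assembles acetylcholine receptors, read 6002, 4748 and 6529 at 4 h and 94.0, 168 and 161 at 0 h, 41.8-fold higher without overlap (log2 difference 5.39 ± 0.24, adjusted p = 3.6e-13). The receptor subunit *unc-29* read 407, 257 and 395 at 4 h and 17.3, 51.2 and 5.4 at 0 h, at least 4.96-fold higher (adjusted p = 2e-05). *unc-38*, a subunit of the same receptor, read 146, 236 and 260.1 at 4 h and 138, 238 and 188 at 0 h and did not pass the test (adjusted p = 0.75), and was 18.7-fold higher at 6 h than at 4 h. *lev-10*, which clusters the receptor, was at least 10.4-fold higher at its brightest probe set (adjusted p = 0.0061), while its others had log2 differences of -0.05 and 0.98 and did not pass the test.

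Most genes of the basement membrane that covers muscle were already higher at 4 h. Of 17 genes, 11 were higher and 0 lower at 4 h than at 0 h, with a median of 3.51. That median was 1.82 once low signals had been set to the reference level. At 6 h, 3 were higher and 0 lower than at 4 h, with a median of 0.31. *ost-1*, the SPARC gene, whose collagen-binding product is made by body wall muscle, read 23865, 21660.4 and 22418 at 4 h, against 53.7, 146 and 23.2 at 0 h, and was at least 254-fold higher (adjusted p = 1.4e-07). The 2 h arrays still read 98.4, 142 and 83.6, and 4 h was 215-fold higher than 2 h (adjusted p = 1.4e-06). *emb-9*, a type IV collagen, read 2618, 2474 and 2529.6 at 4 h and 11.0, 10.7 and 10.2 at 0 h, at least 36.4-fold higher (adjusted p = 7.7e-07), and its partner *let-2* was at least 3.54-fold higher (adjusted p = 0.00099).

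Other matrix genes had different courses. *epi-1*, a laminin alpha chain, read 5866, 4922 and 6227 at 4 h, against 594, 219 and 316 at 0 h, a log2 difference of 4.03 ± 0.26 (adjusted p = 1.3e-10), and had already reached 3305, 3272 and 3726 at 2 h. *lam-1*, the laminin beta chain, and *nid-1*, nidogen, were higher by at least 8.64-fold and at least 22.7-fold (adjusted p = 1.7e-07 and 2.6e-07). *mig-17*, a secreted metalloprotease of the ADAMTS type, was at least 4.28-fold higher at 4 h (adjusted p = 6.9e-07) and 78.6-fold higher again at 6 h. *unc-52*, the perlecan that anchors the attachment sites, did not pass the test at 4 h (adjusted p = 0.062). In the *zig* family of secreted and membrane immunoglobulin-domain proteins, 5 of 11 genes were higher and 0 lower, led by *zig-7* with 22488, 19008 and 14347 at 4 h and 251, 337 and 400.5 at 0 h, 56.5-fold higher (adjusted p = 1.7e-14).

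Programs outside muscle also differed between 4 h and 0 h. The earliest lineage genes were mostly lower, and of 30 genes that specify early blastomeres, 16 were lower (53.3%) and 1 was higher, with a median of -1.90. *end-1*, the GATA factor that starts the endoderm, read 61.6, 25.7 and 122 at 4 h, against 25499, 33397 and 29022 at 0 h, at least 347-fold lower (adjusted p = 8.9e-09). *ceh-51* and *tbx-11*, a homeobox and a T-box gene of the early embryo, were lower by at least 187-fold and 66.3-fold (adjusted p = 3.7e-05 and 1.4e-05). *tbx-11* read 428, 266 and 353 at 4 h, against 19711, 25752 and 23048 at 0 h, with an intermediate 6774, 2369.6 and 1833 at 2 h. *elt-1*, the GATA factor of epidermal fate, was at least 12.4-fold lower (adjusted p = 8.8e-05), and the summed signal of the list was 5619 to 7182 at 4 h, against 80778 to 101128 at 0 h.

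**Figure D3:**
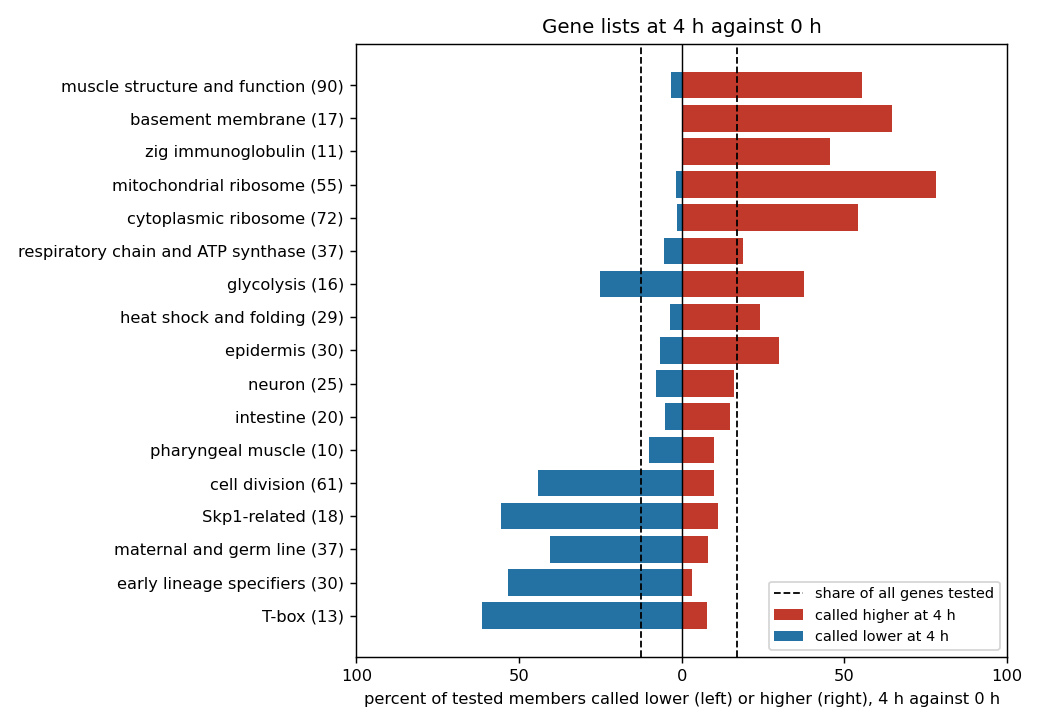
Percent of tested members called higher (to the right) or lower (to the left) at 4 h against 0 h for 17 gene lists, with dashed lines at the shares of all genes tested, 17.1% and 12.4%. Of the lists plotted, the mitochondrial ribosome (78.2%) and the basement membrane (64.7%) had the largest shares of higher genes, and T-box (61.5%) and Skp1-related genes (55.6%) the largest shares of lower genes.

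Maternal and germ line messages were lower in 15 of 37 genes (40.5%) and higher in 3, with a median of -1.41. *nos-2*, a nanos gene of the primordial germ cells, read 542, 426 and 332 at 4 h, against 10999.6, 11331 and 11024 at 0 h, 26.2-fold lower (adjusted p = 0.013). *pie-1*, the zinc finger protein that keeps the germ line silent, read 225, 139 and 143 at 4 h, against 2587, 2719 and 3277 at 0 h, 17.3-fold lower (adjusted p = 8.2e-08). Both genes were lower in every 4 h array than in every 0 h array. *pos-1*, of the same zinc finger class, was 53.1-fold lower (adjusted p = 0.029), but its call was lost without any 1 of the 6 arrays, with adjusted p of 0.061 to 0.083. Its second probe set was at least 35.4-fold lower (adjusted p = 9.4e-05). *mex-3*, an RNA-binding regulator of blastomere identity, went against the list and was 4.11-fold higher (adjusted p = 0.0022), and then was 8.49-fold lower at 6 h than at 4 h.

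The Skp1-related genes, which encode adaptors of ubiquitin ligases, were lower in 10 of 18 cases (55.6%) and higher in 2. Those of the T-box factors, many of which act in early lineages, were lower in 8 of 13 cases and higher in 1. *skr-10* read 548, 478 and 305 at 4 h, against 32427, 38248 and 49099.7 at 0 h, 91.3-fold lower (adjusted p = 0.0001). *skr-9* was 37.9-fold lower (adjusted p = 5.4e-08). The 2 genes are close in sequence, so that their probe sets may read shared message.

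Cell division genes were on the way down, with a larger share of the list called in the following step. Of 61 genes, 27 were lower (44.3%) and 6 higher at 4 h than at 0 h, with a median of -0.74. Whichever array was left out, 21 of these 27 lower calls and 3 of the 6 higher calls were kept. At 6 h, 43 were lower and 1 higher than at 4 h, with a median of -1.61. The mitotic cyclin *cyb-2.2* read 122, 180.5 and 127 at 4 h, against 14206, 14874 and 11412 at 0 h, 95.3-fold lower (log2 difference -6.57 ± 0.29, adjusted p = 3e-13). *rnr-2*, the small subunit of ribonucleotide reductase, and *mcm-3*, a subunit of the replicative helicase, were lower by 4.27-fold and 6.56-fold (adjusted p = 5e-09 and 0.00019). *cdc-25.2*, a phosphatase that promotes mitosis, was 3.31-fold higher (adjusted p = 1.9e-05) and 2.94-fold lower at 6 h than at 4 h.

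Among 12 genes that brake the cell cycle, 3 were higher and 4 lower. *cki-1*, the cyclin-dependent kinase inhibitor of the p27 type, read 10610.3, 11305 and 7633 at 4 h, against 272, 154 and 257 at 0 h, and was 44.0-fold higher (adjusted p = 1.8e-13). The 2 h arrays read 508, 644 and 584, so that 4 h was 16.9-fold higher than at 2 h (adjusted p = 1.2e-10), and 6 h did not pass the test against 4 h (adjusted p = 0.83). *fzr-1*, the Cdh1 activator of the anaphase-promoting complex, was 4.67-fold higher (adjusted p = 2e-06). *lin-35*, the retinoblastoma homolog, and *efl-1*, an E2F factor, were lower by 2.12-fold and 2.98-fold (adjusted p = 0.0048 and 7.4e-06).

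Genes of the translation machinery were higher at 4 h. Of 55 mitochondrial ribosomal protein genes, 43 were higher (78.2%) and 1 lower, with a median of 1.67, and 0 were higher and 2 lower at 6 h than at 4 h. *mrps-9* read 1482, 1398 and 1351 at 4 h, against 276, 288 and 206 at 0 h, 5.55-fold higher (adjusted p = 2.7e-08), and *mrpl-50* was 6.33-fold higher (adjusted p = 4.9e-09). Of 72 cytoplasmic ribosomal protein genes, 39 were higher (54.2%) and 1 lower, with a smaller median of 0.85, and only 29 of the 39 kept the call with arrays scaled to 1 median and with quantile normalization. *rpl-14* was 3.17-fold higher (adjusted p = 2.2e-06), and *rpl-11.1* was the lower one, at 2.21-fold (adjusted p = 0.0003).

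The proteasome list was mixed, with 2 of 31 genes higher and 6 lower, but it held the largest rise of the whole comparison among probe sets above the reference level in every array. *rpn-1*, a subunit of the proteasome cap, read 67766, 70707 and 56878 at 4 h, against 322, 258 and 225 at 0 h, 244-fold higher (log2 difference 7.93 ± 0.18, adjusted p = 1.8e-17). Its 2 h signals were already 57849.7, 51406 and 43402, and it was 3.98-fold lower at 6 h than at 4 h. The other higher gene, *rpt-6*, lost its call without the 4 h sample C or the 0 h sample B (adjusted p = 0.08 for each). Whichever array was left out, 5 of the 6 lower calls of this list were kept.

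Glycolysis genes were split between paralogs, with 6 of 16 genes higher and 4 lower. The aldolase *aldo-1* read 5673, 7667 and 6087 at 4 h, against 716, 709 and 978 at 0 h, 8.11-fold higher (adjusted p = 9.6e-10). Its paralog *aldo-2* read 793, 908 and 741 at 4 h, against 52010.0, 47743 and 51643 at 0 h, 62.2-fold lower (adjusted p = 3.6e-12). The phosphofructokinase genes split as well, with *pfk-1.2* at least 10.8-fold higher and *pfk-1.1* 4.99-fold lower (adjusted p = 1.3e-11 and 0.00018), and *ldh-1*, lactate dehydrogenase, was 15.6-fold higher (adjusted p = 1.2e-12). Of 37 genes for the respiratory chain and ATP synthase, 7 were higher and 2 lower at 4 h than at 0 h (18.9% and 5.41%, beside 17.1% and 12.4% of all genes). Against 2 h, however, 21 of them were higher at 4 h (56.8%, beside 7.08% of all genes) and 1 was lower. The list median of that step was a log2 difference of 0.80, little above the 1.7-fold minimum. *ucr-2.2* lost its call in that step with arrays scaled to 1 median (adjusted p = 0.062). How many of the 21 calls were kept under other scalings was not counted. The summed signal of this list was 393879 to 461644 at 0 h, 259528 to 283866 at 2 h and 403290 to 535966 at 4 h. Of 21 genes of the tricarboxylic acid cycle, 5 were higher and 4 lower, led by *icl-1* of the glyoxylate bypass at 16.3-fold higher (adjusted p = 2.6e-09).

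The 4 h embryos had been heated and the 0 h embryos had not, so heat shock genes were examined as well. Of 29 heat shock and folding genes tested, 7 were higher (24.1%) and 1 lower, beside 17.1% and 12.4% of all genes. The inducible *hsp-16.2* read 299.9, 268 and 240.2 at 4 h, against 194, 191 and 82.1 at 0 h, and did not pass the test (adjusted p = 0.14). *hsp-70*, the inducible Hsp70, read 38.3, 10.5 and 126 at 4 h and did not pass it either (adjusted p = 0.89). A probe set shared by 2 other genes of the *hsp-16* family, however, read 14369.8, 6244 and 9568 at 4 h, against 89.0, 125 and 279 at 0 h, 65.1-fold higher (adjusted p = 2e-06). It was also 4.12-fold higher at 4 h than at 2 h (adjusted p = 0.015), and 6 h did not pass the test against 4 h (adjusted p = 0.43). The probe set shared by *hsp-16.1* and *hsp-16.11* was at least 23.3-fold higher at 4 h than at 0 h (adjusted p = 6e-09). It was 4.18-fold higher at 4 h than at 2 h and 2.72-fold lower at 6 h than at 4 h (adjusted p = 0.00074 and 0.012). The call at 6 h was lost without the 6 h or the 4 h sample A. These shared probe sets are not counted among the 29 genes. Heat shock genes of this kind thus differed between the groups together with the muscle genes, and their part in the other differences was not tested.

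Of the other small heat shock genes, *hsp-12.2* and *hsp-12.1* were higher by 25.5-fold and at least 36.1-fold (adjusted p = 1.3e-05 and 0.00025). Neither had a signal above the reference level in any 2 h array, *hsp-12.2* reading 21.3, 46.2 and 19.4 there, and *hsp-12.2* was 20.4-fold higher again at 6 h than at 4 h. *sip-1*, a small heat shock gene of embryos, was 35.7-fold lower (adjusted p = 4.4e-05). *hsp-1*, a constitutive Hsp70, was 7.34-fold higher (adjusted p = 2.3e-07).

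Markers of other cell types were examined because whole embryos were sampled. For pharyngeal muscle, 1 of 10 genes was higher and 1 lower, and the summed signal was 1252 to 1781 at 4 h, against 1618 to 1714 at 0 h. *myo-2*, a pharyngeal myosin, was below the reference level in every 4 h array, with 34.9, 25.5 and 47.1, while *ceh-22*, a homeobox gene of this muscle, was at least 3.37-fold higher (adjusted p = 0.0054). For neurons, 4 of 25 genes were higher and 2 lower, with a summed signal of 14259 to 16356 at 4 h, against 14824 to 16498 at 0 h. *unc-64*, the syntaxin of synapses, was at least 2.71-fold higher and *unc-30*, a homeobox gene of inhibitory motor neurons, at least 51.6-fold lower (adjusted p = 0.0051 and 8.3e-07).

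For the intestine, 3 of 20 genes were higher and 1 lower. The higher genes were *cpr-6*, by at least 8.22-fold (adjusted p = 7.7e-05), *elt-2* and *asp-1*. The calls of *elt-2* and *asp-1* were lost without the 4 h sample C (adjusted p = 0.11 and 0.069), among other arrays. The summed signal of the list was 3652 to 4110 at 4 h, against 7761 to 10316 at 0 h. *elt-7*, a GATA factor of the gut, read 283, 377 and 451 at 4 h, against 6026, 8494 and 5415 at 0 h, 17.9-fold lower (adjusted p = 4.4e-10). Most of the summed signal at 0 h was that of *elt-7*, so the lower sum at 4 h does not describe the other members. The epidermis had more calls, with 9 of 30 genes higher (30.0%) and 2 lower and a summed signal of 38210 to 73835 at 4 h, against 28298 to 31694 at 0 h. *pat-12*, which links epidermis to muscle at fibrous organelles, read 4526, 3352 and 5158 at 4 h, against 149, 121 and 113 at 0 h, 33.7-fold higher (adjusted p = 4.3e-12). *sqt-3*, a cuticle collagen, and *dlg-1*, a junction scaffold, were higher by 10.7-fold and 6.86-fold (adjusted p = 1.6e-05 and 3.5e-06), while *lin-26* and *elt-3*, epidermal transcription factors, did not pass the test (adjusted p = 0.71 and 0.94). Of the 30 epidermal genes 19 did not pass the test, and the list median was a log2 difference of 0.35. Whichever array was left out, 6 of the 9 higher calls were kept. Some epidermal genes thus moved with the muscle genes, and their part in the basement membrane result was not tested.

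**Figure D4:**
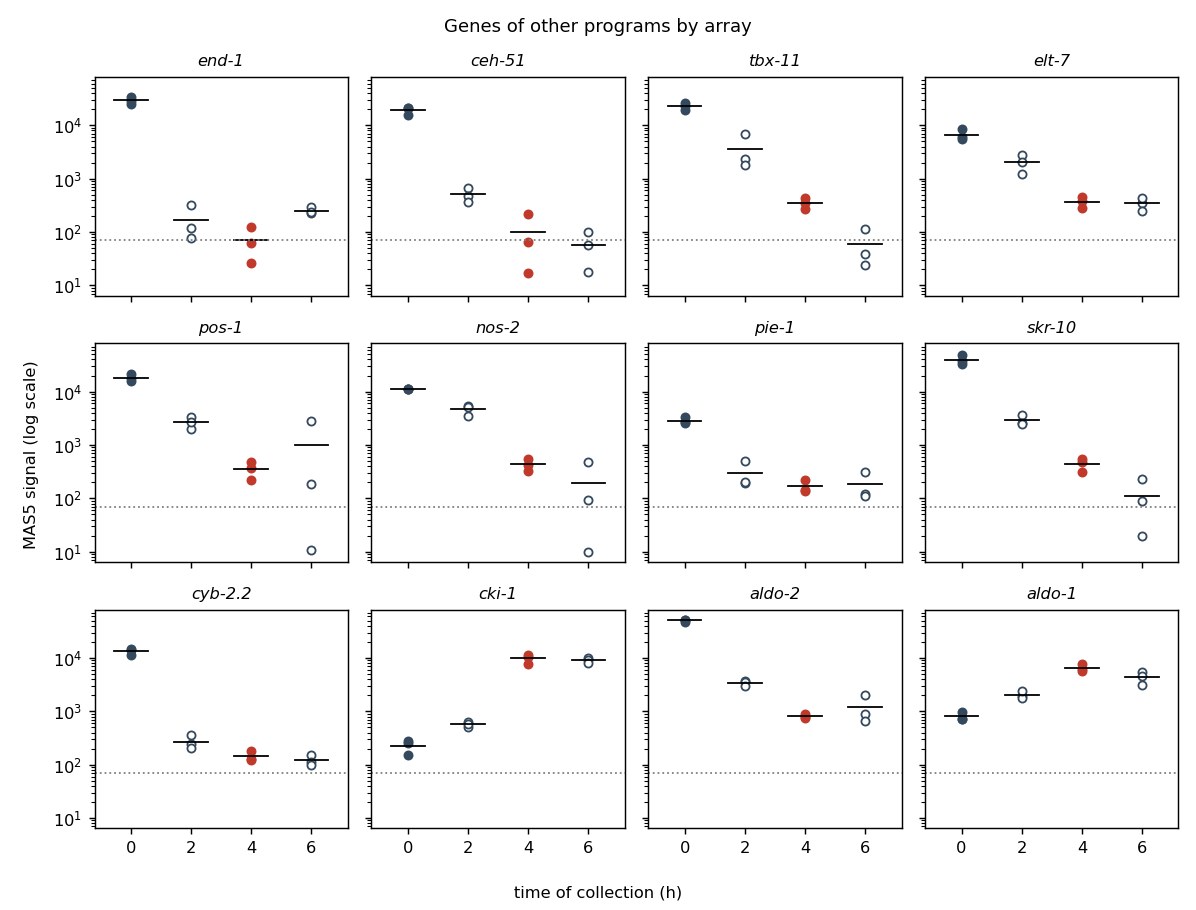
MAS5 signal on a log axis of 12 genes outside muscle against the time of collection in hours. The 0 h embryos had no heat pulse. Each point is 1 array, with bars for the mean and a dotted line at the reference level of 69.7. *end-1*, *ceh-51*, *pie-1*, *cyb-2.2* and *aldo-2* were low by 2 h, *elt-7* was lower still at 4 h than at 2 h, and *cki-1* was high from 4 h.

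The largest changes of the comparison were not all muscle genes. Beside *rpn-1* and *pat-10*, the largest rises among probe sets above the reference level in all 6 arrays included *kola-3*, at 41885, 32611 and 27502 in the 4 h arrays and 219, 167 and 120.4 in the 0 h arrays, or 204-fold, and *somi-1*, which encodes a zinc finger protein, at 104-fold (adjusted p = 3.8e-16 and 4.8e-16). *chtb-3* and *cutl-29*, a cuticlin-like gene, rose by 135-fold and 128-fold (adjusted p = 1.5e-11 and 4.8e-16). *cutl-29* was 6.77-fold lower again at 6 h than at 4 h. Several had no annotated name beyond their sequence, among them F53F10.1 at 225-fold and T02H6.6 at 170-fold (adjusted p = 5.4e-17 and 3.6e-13).

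Genes with a 0 h array below the reference level gave larger bounds still. *bcf-1* read 93852, 93765 and 63309 at 4 h, against 59.0, 32.9 and 150.2 at 0 h, at least 914-fold higher (adjusted p = 5.9e-09). *spp-8*, of the saposin-like family, and *hlh-12*, a helix-loop-helix gene, were higher by at least 735-fold and at least 489-fold (adjusted p = 1.6e-07 and 1.8e-13). *hlh-12* was 4.94-fold lower at 6 h than at 4 h (adjusted p = 1.8e-05), whereas *bcf-1* did not pass that test (adjusted p = 0.86).

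Among the largest losses, *dsl-2*, of the family of Notch ligands, read 419, 278 and 433 at 4 h, against 65739.5, 76286 and 79589.7 at 0 h, 199-fold lower (adjusted p = 1.4e-06). *dsl-1*, of the same family, was at least 590-fold lower (adjusted p = 0.00024). *fbxb-95*, an F-box gene, and *clec-88*, a C-type lectin gene, were lower by 198-fold and 180-fold (adjusted p = 1.3e-10 and 0.00023). A second probe set of *clec-88* was 169-fold lower, and 94.0-fold without the 4 h sample A. The largest bound was that of Y25C1A.6, which was at least 744-fold lower (adjusted p = 2.2e-14).

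Some genes that were not called higher at 4 h against 0 h were much higher at 6 h than at 4 h. *unc-87*, a calponin-like protein of thin filaments, read 19.9, 32.7 and 106 at 4 h, against 112, 14.9 and 33.3 at 0 h, at its brightest probe set (adjusted p = 0.94), and 5050.2, 5316 and 5297 at 6 h. Another probe set was called higher at 4 h with a bound of 1.12-fold, a call that was lost without the 4 h sample A or C or the 0 h sample A or B (adjusted p = 0.12, 0.15, 0.084 and 0.099). *srp-1*, a serpin, read 33.9, 18.9 and 40.4 at 4 h and 24.1, 8.0 and 146 at 0 h, and was at least 156-fold higher at 6 h than at 4 h (adjusted p = 5.5e-07). F36F2.1 was below the reference level in all 4 h and 0 h arrays and was at least 73.0-fold higher at 6 h than at 4 h (adjusted p = 3.8e-07).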

How the data were processed

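RNA of whole embryos was measured on Affymetrix arrays, 12 in all, 3 at each of 0, 2, 4 and 6 h. The authors deposited MAS5 intensity values on a linear scale. MAS5 is named, without a version, in the submitters' processing notes. The trimmed mean of each array was 500.2 to 500.3 with 2% trimmed at each end.

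Control probe sets (77) were left out. Signals were taken to log2. The reference level of 69.7 was set by taking each array's signal at its 40th percentile and then the median of these values, and a probe set was tested if it exceeded this on 3 arrays or more. All 12 arrays were fitted with limma 3.58.1 in R 4.3.3 with 1 mean per time point and a robust, trended variance, and p was adjusted by Benjamini-Hochberg over 18264 probe sets. Tables were made with Python 3.11.15. Of the probe sets, 20766 had a single gene in the platform annotation, which may be old, 887 had several genes and 895 had none, and the gene of 20701 of the single-gene probe sets was found in the RefSeq gene table. A gene was read at its own probe set with the highest mean signal.

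By rule the text could name the 10 largest increases and decreases among called probe sets above the reference level in all 6 arrays without overlap, the 5 largest lower bounds in each direction, every muscle list member, up to 5 called members of each other list in each direction, and the 5 largest increases at 6 h among genes not called at 4 h. Other genes named, among them list members that did not pass, were picked with their values in view. The members and lists were chosen with earlier results of these data known. Alternatives were another scaling (1 median, quantile), low signals raised to the reference level or 16 added to all, no filter or a stricter one, no trend, only the time points compared, the mean over probe sets, adjusted p or fold alone, the replicate letter as a block, and each array left out. A search of promoters for the HLH-1 site was planned and not run. The number of arrays limits the precision. The fit was tested on simulated data.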

Additional observations from a re-analysis of the deposited data

How the results depend on the processing

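Counts of called probe sets stayed within 1.5 times of those reported under every alternative but 1. With a change of at least 1.7-fold alone and no test, 5908 probe sets were higher and 4630 lower at 4 h than at 0 h, 4171 and 4101 at 4 h than at 2 h, and 5033 and 3562 at 6 h than at 4 h. Scaled to 1 median, 2895 were higher and 2304 lower at 4 h than at 0 h, beside 3122 and 2181 as deposited. That scaling moved the median of all tested probe sets to 0.09 at 4 h against 0 h, beside 0.16 as deposited, and to -0.17 at 6 h against 4 h, beside 0.13. Without 1 array, 2773 to 2986 were higher and 1860 to 2040 lower at 4 h than at 0 h, 965 to 1163 and 958 to 1234 at 4 h than at 2 h, and 1044 to 1234 and 1344 to 1630 at 6 h than at 4 h. Higher muscle genes numbered 43 to 51 without 1 array and 45 to 61 under the other alternatives, the most with the fold alone.

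The replicate letters mark no shared source in the labels, and arrays of the same letter did not deviate together, with correlations of deviations of -0.03 to 0.03. With the replicate letter as a block, 3061 probe sets were higher and 2155 lower at 4 h than at 0 h, with 49 muscle genes higher, 1218 and 1293 at 4 h than at 2 h, and 1365 and 1510 at 6 h than at 4 h.

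Of 321 single genes followed at 4 h against 0 h, 254 kept their side of the threshold under every alternative in which they were tested and 0 reversed. The stricter reference level left 19 of the 321 untested. Signals near the reference level limit the folds of dim genes to lower bounds, those of *myo-3* and *unc-54* among them. The promoter search was not run.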

Other observations

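Other gene families were read in the same way, beside 17.1% of all genes tested that were higher at 4 h than at 0 h and 12.4% that were lower. Of 49 *ceh* homeobox genes tested, 11 were higher at 4 h (22.4%) and 12 lower (24.5%), with a median log2 difference of 0.19. *ceh-34*, a Six-type factor, was at least 8.14-fold higher (adjusted p = 0.01), and *ceh-20*, a PBX-type cofactor of Hox proteins, was 6.53-fold higher (adjusted p = 4.1e-11). *ceh-43* and *ceh-37* were lower by 15.8-fold and 9.49-fold (adjusted p = 0.0027 and 4.2e-07). Nuclear hormone receptor genes had 21 higher (11.4%) and 9 lower (4.86%) of 185, below the shares of all genes tested, and *nhr-2* was at least 63.9-fold lower (adjusted p = 1.5e-06). Among T-box genes, *tbx-2* was the only one of 13 called higher, by at least 6.20-fold (adjusted p = 0.0035).

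Of 103 collagen genes of the cuticle family, 12 were higher (11.7%) and 7 lower (6.8%) at 4 h, also below those shares, and *col-71* was 13.5-fold higher (adjusted p = 6.1e-09). Tubulins were split, with 5 of 15 higher (33.3%) and 1 lower (6.67%). The lower one, *tbb-2*, was 2.66-fold lower at 4 h than at 0 h and 6.31-fold lower at 6 h than at 4 h (adjusted p = 2.9e-05 and 1.7e-08), while *tba-4* was 2.31-fold higher at 4 h than at 0 h (adjusted p = 0.0087). Of 20 innexins, which form gap junctions, 3 were higher and 3 lower (15% each), which is near the shares of all genes, and *inx-14*, of the germ line, was 4.92-fold lower (adjusted p = 0.0014).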
